A study of Mus musculus with 32 samples.

Results

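The 9 genes described here encode transporters that carry drugs, bile acids, steroid conjugates and other organic ions across the hepatocyte membrane: Slco1a1, Slco1a4, Slco1b2, Slco2b1, Slc22a7, Slc47a1, Abcc2, Abcc3 and Abcc4. They were taken by the gene name that the array files give to their probes, which yielded 13 of the 56605 non-control probes and 9 of the 23646 genes tested, and all 13 probes were kept. Liver RNA of 32 male F1 mice, the offspring of C57BL/6J mothers, was hybridised to 1 one-colour Agilent array per mouse. The groups of 8 mice were a Western diet with E171, a Western diet without it (Western-diet controls), a normal diet with E171, and a normal diet without it (normal-diet controls). E171 is food-grade titanium dioxide. It was mixed into the pellets at a target of 10 mg per kg body weight per day, first for the mothers and then for their young. All mice were 21 weeks old at sampling, and the diet groups parted at 5 weeks of age for 16 weeks. The treatment text calls the second diet high in fat while the group labels call it Western, which is the name used here. The study asked whether diet aggravates responses to the additive. The labels give neither the litter nor the time of sampling, so every p-value counts 8 independent mice per group even where some shared a litter.

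Hepatocytes take organic anions from portal blood through carriers of the OATP family (Slco genes) and of the OAT family (Slc22 genes), and they release drugs and conjugates into bile through pumps and exchangers of the canalicular membrane. A second set of pumps on the blood side, among them the products of Abcc3 and Abcc4, returns conjugates and bile acids to the circulation and is known to increase in cholestasis. In mouse liver several of these genes differ between the sexes, with Slco1a1 typical of males, and several respond to xenobiotic sensors.

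Each value rests on probes of 60 bases, and the probes of the genes on which the results turn are shown because they are what was measured; where a gene had 2 probes, the brighter one stood for it in the tests. Positions are those the array files give for the mm9 build. The second probe of Slco2b1 is annotated to the strand opposite to that of its first probe.
Slco1a1 (mm9 chr6:141857328-141857387, minus strand): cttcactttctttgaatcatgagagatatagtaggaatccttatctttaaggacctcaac
Slco1a1 second probe (mm9 chr6:141856493-141856552, minus strand): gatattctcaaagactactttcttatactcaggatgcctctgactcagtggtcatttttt
Slco1b2 (mm9 chr6:141634476-141634535, plus strand): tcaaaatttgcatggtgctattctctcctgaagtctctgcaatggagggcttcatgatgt
Slco1b2 second probe (mm9 chr6:141605178-141605237, plus strand): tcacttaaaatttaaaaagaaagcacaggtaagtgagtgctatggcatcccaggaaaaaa
Slco2b1 (mm9 chr7:106807008-106807067, minus strand): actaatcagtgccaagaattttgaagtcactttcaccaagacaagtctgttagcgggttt
Slco2b1 second probe (mm9 chr7:106815871-106815930, plus strand): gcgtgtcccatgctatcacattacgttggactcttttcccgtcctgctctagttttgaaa
Slc22a7 (mm9 chr17:46569272-46569331, minus strand): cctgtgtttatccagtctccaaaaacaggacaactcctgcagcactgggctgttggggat
Abcc3 (mm9 chr11:94204612-94204671, minus strand): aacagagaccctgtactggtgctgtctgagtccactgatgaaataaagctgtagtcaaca
Abcc3 second probe (mm9 chr11:94225685-94225744, minus strand): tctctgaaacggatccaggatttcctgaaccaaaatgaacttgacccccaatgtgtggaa
Abcc4 (mm9 chr14:118882104-118882163, minus strand): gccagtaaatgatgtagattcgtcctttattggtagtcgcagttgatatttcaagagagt

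On the Western diet, control livers held less mRNA of 3 of the 5 uptake carriers and more mRNA of all 4 exporters. Of all genes in that comparison, 28.8% were lower and 18.5% higher. In Western-diet controls against normal-diet controls, Slco1a1 fell by 2.76 and Slc22a7 fell by 2.92 on the log2 scale, to 0.147 and 0.132 of the normal-diet level, and Slco1b2 fell by 0.45. The efflux genes Abcc3 (1.97-fold), Abcc4 (1.84-fold), Abcc2 (1.28-fold) and Slc47a1 (1.19-fold) rose, while Slco1a4 and Slco2b1 did not pass the test. The calls of Slco1b2 and Slc47a1 in controls depended on the scaling, and that of Slc47a1 also on single mice, as given with each gene. In mice given E171, the diet comparison called 4 of 9 genes higher and 2 of 9 lower, where 22.2% of all genes were higher and 31.0% lower (53.2% in either direction). In controls it called 4 of 9 higher and 3 of 9 lower, where 18.5% of all genes were higher and 28.8% lower (47.3% in either direction). The lower counts of the 9 genes lay near these shares in both comparisons. The 4 genes called higher were the same in both comparisons, and Slco1a1 and Slc22a7 were lower in both. The median log2 difference of the 9 genes was 0.05 in E171 mice and 0.02 in controls, against -0.10 for all genes in each comparison. Tests were limma's moderated test over all genes with Benjamini-Hochberg adjustment and a threshold of 0.05.

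**Figure D1:**
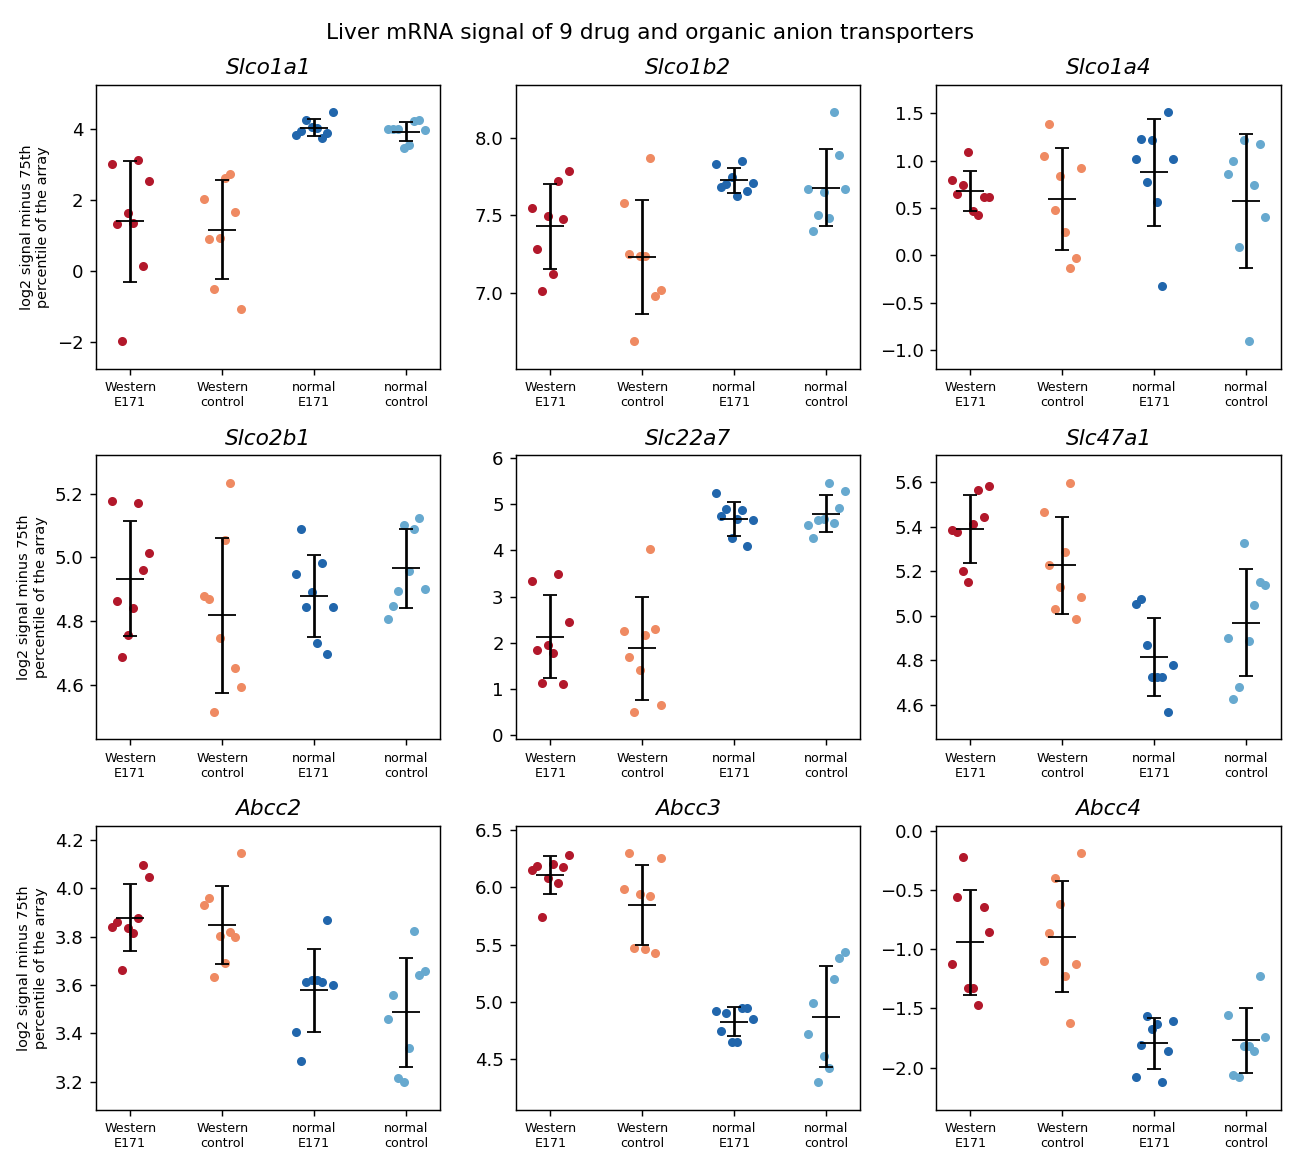
Normalized log2 signal (log2 intensity minus the 75th percentile of the array) of the 9 transporters, 1 point per mouse, 8 mice per group, with the group mean and SD as bars. Slco1a1 and Slc22a7 of every Western-diet mouse lie below every normal-diet mouse, and within the Western diet Slco1a1 runs from -1.97 to 3.15.

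Slco1a1 encodes an uptake carrier for bile acids, steroid sulfates and other organic anions. Its normalized log2 signal, which is the log2 intensity relative to the 75th percentile of the same array, had a lowest value, median and highest value of -1.97, 1.5 and 3.15 on the Western diet with E171 and of -1.05, 1.31 and 2.76 without it. The corresponding values were 3.76, 4.01 and 4.48 on the normal diet with E171 and 3.48, 4.0 and 4.26 in normal-diet controls. No Western-diet mouse reached the lowest normal-diet mouse, with or without E171. The difference was -2.64 (95% interval -3.72 to -1.55, adjusted p = 0.000132 in limma) in E171 mice and -2.76 (-3.85 to -1.68, adjusted p = 9.4e-05 in limma) in controls. Mice on the Western diet also differed far more from each other: the SD was 1.69 with E171 and 1.39 in controls, against 0.24 with E171 and 0.28 in controls on the normal diet. The second Slco1a1 probe gave -2.44 in E171 mice and -2.61 in controls.

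Slc22a7 encodes OAT2, a basolateral carrier of small organic anions. On the Western diet its lowest, median and highest signals were 1.11, 1.89 and 3.48 with E171 and 0.51, 1.93 and 4.04 in controls. On the normal diet they were 4.10, 4.71 and 5.25 with E171 and 4.26, 4.66 and 5.46 in controls. As for Slco1a1, the diet groups did not overlap in either comparison, although Western-diet control mouse 6 (4.04) came close to the lowest normal-diet control (4.26). The difference was -2.55 (95% interval -3.30 to -1.80, adjusted p = 1.23e-06 in limma) in E171 mice and -2.92 (-3.67 to -2.17, adjusted p = 1.75e-07 in limma) in controls. In E171 mice the diet groups did not overlap for 5 of 9 genes, Slco1a1, Slc22a7, Slc47a1, Abcc3 and Abcc4, where this held for 18.0% of all genes. In controls it was 2 of 9, Slco1a1 and Slc22a7, where it held for 9.96% of all genes.

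Slco1b2 encodes the main liver-specific OATP of rodents, which takes up bilirubin, bile acids and statins. Western-diet mice had lowest, median and highest signals of 7.01, 7.48 and 7.78 with E171 and of 6.69, 7.24 and 7.87 in controls. Normal-diet mice had 7.62, 7.71 and 7.85 with E171 and 7.40, 7.66 and 8.16 in controls, so that the diet groups overlapped in both comparisons. The difference missed the threshold in E171 mice (-0.30, SE 0.13, adjusted p = 0.0534 in limma) and passed in controls (-0.45, SE 0.13, adjusted p = 0.00528 in limma). With the slide of the array as a block it passed in E171 mice as well (-0.30, adjusted p = 0.0246 in limma). Quantile normalization ended the call in controls (-0.23, adjusted p = 0.0842 in limma), as did the deposited table and normexp correction, so this decrease depends on the scaling. The second Slco1b2 probe, which lies in the same gene but far upstream of the first, passed in both comparisons (-0.47 in E171 mice, with adjusted p = 0.0189 in limma over all kept probes, and -0.79 in controls). It is annotated to a different transcript record than the first, and its intensities were only 82.9 to 246 over all mice.

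The remaining uptake carriers, Slco1a4 and Slco2b1, showed no diet difference past the threshold. Slco1a4, an OATP of broad specificity that is found in liver and at the blood-brain barrier, had medians of 0.63 on the Western diet with E171 and 0.66 in Western-diet controls, against 1.02 in normal-diet mice given E171 and 0.80 in normal-diet controls. Single mice ranged from -0.91 to 1.51 and the groups overlapped throughout. Its 95% interval for the diet difference reached from -0.73 to 0.33 in E171 mice and from -0.51 to 0.55 in controls, which leaves room for any difference within these bounds. Slco2b1, a carrier of steroid sulfates, ranged from 4.52 to 5.23 over all mice, and its groups overlapped too. The difference was 0.05 (95% interval -0.13 to 0.23) in E171 mice and -0.15 (-0.33 to 0.03) in controls. The second probe named for the gene lies on the opposite strand, so it may not measure Slco2b1 mRNA. It gave -0.35 in E171 mice (adjusted p = 0.0224 in limma over all kept probes) and -0.21 in controls. Quantile normalization put the brighter Slco2b1 probe at 0.18 in E171 mice (adjusted p = 0.0489 in limma), so the call of this gene too depends on the scaling.

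Among the exporters on the canalicular side, Slc47a1 encodes MATE1, which exchanges organic cations for protons. Its lowest, median and highest signals were 5.15, 5.40 and 5.58 on the Western diet with E171 and 4.98, 5.18 and 5.60 in Western-diet controls. They were 4.57, 4.75 and 5.07 on the normal diet with E171 and 4.62, 4.97 and 5.32 in normal-diet controls. The diet groups were apart in E171 mice and overlapped in controls. The difference was 0.58 in E171 mice (SE 0.10, adjusted p = 1.75e-05 in limma) and 0.26 in controls (SE 0.10, adjusted p = 0.0337 in limma). The control call was lost with scaling to the array median (0.23, adjusted p = 0.0542 in limma) and without Western-diet control 1 or 6 or without normal-diet control 1, 2, 3 or 5 (differences of 0.20 to 0.25, adjusted p up to 0.0851 in limma), and on slide 3 the control difference was -0.03.

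Abcc2 encodes MRP2, the canalicular pump for conjugated bilirubin and glutathione conjugates. Western-diet mice had lowest, median and highest signals of 3.66, 3.85 and 4.10 with E171 and 3.64, 3.81 and 4.14 in controls. Normal-diet mice had 3.29, 3.61 and 3.87 with E171 and 3.20, 3.51 and 3.82 in controls, and the diet groups overlapped in both comparisons. Abcc2 rose by 0.30 in E171 mice (1.23-fold, adjusted p = 0.00544 in limma) and by 0.36 in controls (adjusted p = 0.00142 in limma).

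The exporters on the blood side rose in both diet comparisons. Abcc3 encodes MRP3, which sends glucuronides and bile acids back to blood. Its lowest, median and highest signals were 5.74, 6.17 and 6.28 on the Western diet with E171 and 5.43, 5.93 and 6.30 in Western-diet controls, against 4.65, 4.88 and 4.95 in E171 mice on the normal diet and 4.30, 4.85 and 5.43 in normal-diet controls. The groups were apart in E171 mice, and in controls the lowest Western-diet mouse and the highest normal-diet mouse stood at 5.43 each. Abcc3 was 2.43-fold higher in E171 mice (log2 difference 1.28, 95% interval 0.98 to 1.58, adjusted p = 2.72e-08 in limma) and 1.97-fold higher in controls (0.98, 0.68 to 1.28, adjusted p = 3.11e-06 in limma). Its second probe gave 1.36 in E171 mice and 1.08 in controls.

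Abcc4 encodes MRP4, a pump for bile acids and cyclic nucleotides. On the Western diet its lowest, median and highest signals were -1.47, -0.99 and -0.22 with E171 and -1.63, -0.98 and -0.19 in controls, against -2.12, -1.74 and -1.57 with E171 and -2.08, -1.81 and -1.23 in controls on the normal diet. The groups were apart in E171 mice and overlapped in controls, where Western-diet mouse 6 fell among the normal-diet mice. The probe was well above background on all 32 arrays, but its intensities were low. They were 90.3 to 292 with E171 and 91.2 to 252 in controls on the Western diet. On the normal diet they were only 40.1 to 88.8 with E171 and 60.2 to 106 in controls. Abcc4 was 1.80-fold higher in E171 mice (log2 difference 0.85, adjusted p = 0.000204 in limma) and 1.84-fold higher in controls (0.88, adjusted p = 0.00018 in limma).

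The arrays lay on 4 slides with 2 mice of each group on every slide, so the diet differences could be taken within slides. Slco1a1 ran from -4.26 to -1.63 over the slides in E171 mice and from -4.05 to -1.72 in controls. Slc22a7 ran from -3.51 to -1.79 in E171 mice and from -4.11 to -1.43 in controls. Abcc3 ran from 1.19 to 1.37 in E171 mice and from 0.61 to 1.23 in controls, and Abcc4 from 0.34 to 1.08 in E171 mice and from 0.35 to 1.37 in controls. Each called gene kept its sign on all 4 slides, except Slc47a1 in controls.

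**Figure D2:**
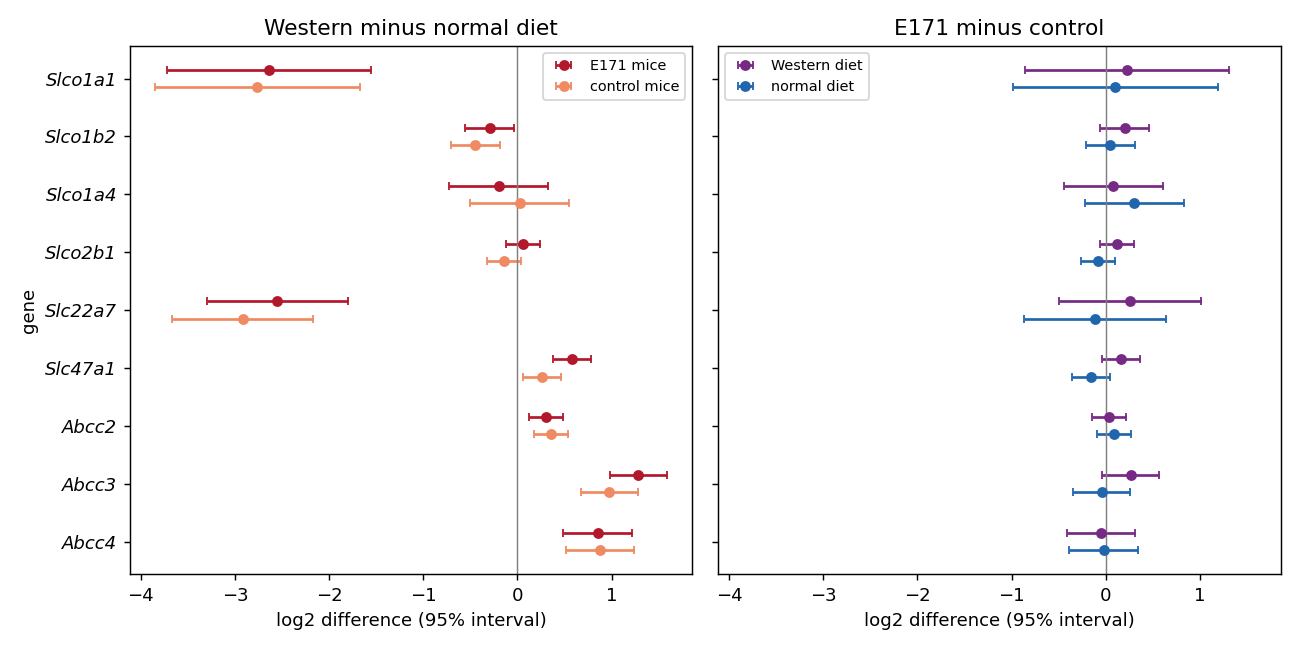
Log2 differences of the 9 genes with 95% intervals from limma, left for Western minus normal diet in E171 mice and control mice, right for E171 minus control on each diet. The diet intervals of Slco1a1, Slc22a7, Slc47a1, Abcc2, Abcc3, Abcc4 and Slco1b2 lie clear of 0 in both comparisons, though Slco1b2 in E171 mice missed the adjusted threshold, and every E171 interval includes 0.

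None of the 9 genes passed the threshold for E171 against control on either diet. On the Western diet, differences between E171 mice and controls ran from -0.05 (Abcc4) to 0.26 (Abcc3), and the smallest adjusted p was 0.498 in limma; 0.381% of all genes were called. On the normal diet they ran from -0.16 (Slc47a1) to 0.30 (Slco1a4), with every adjusted p close to 1 in limma and 0 of 23646 genes called (958 at an unadjusted p under 0.05). Averaged over diets, 0 of 9 passed as well (smallest adjusted p = 0.673 in limma, 0.368% of all genes called). At an unadjusted p under 0.05 the count was also 0 of 9 in each of these comparisons, where 2821 of 23646 genes passed that level on the Western diet and 2600 averaged over diets. The precision differed widely between genes. For Slco1a1 the interval on the Western diet was -0.86 to 1.31 and on the normal diet -0.98 to 1.19, and both include a 2-fold increase. For Slco2b1 it was narrow, -0.06 to 0.30 on the Western diet and -0.27 to 0.09 on the normal diet.

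The question whether the diet difference itself depended on E171 was addressed by the interaction of E171 and diet, and 0 of 9 genes and 0 of all 23646 passed (1222 of all genes at an unadjusted p under 0.05). Slc47a1 came nearest, with a diet difference larger by 0.32 in E171 mice (95% interval 0.03 to 0.61, unadjusted p = 0.0302, adjusted p = 0.93 in limma). Slco1b2 passed in controls and, without the slide as a block, not in E171 mice, but its interaction of 0.15 (95% interval -0.22 to 0.52) did not pass, so the diet differences were not shown to differ.

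Slco1a1 varied so widely among Western-diet mice that its relation to other genes could be followed from mouse to mouse. Hsd3b5, a steroid dehydrogenase typical of male mouse liver, had lowest, median and highest signals of -4.66, -0.81 and 3.96 on the Western diet with E171 and of -4.48, -0.99 and 3.62 without it. On the normal diet they were 5.95, 6.45 and 6.80 with E171 and 5.54, 6.42 and 6.81 in controls, all above the Western-diet mice. Hsd3b5 was picked with earlier results of these data known, and of all genes it was the one most like Slco1a1 over these arrays, so its p-values do not allow for that choice and are no independent support. Slco1a1 and Hsd3b5 were correlated on the Western diet with E171 (Pearson r = 0.934, exact permutation p = 0.000124, adjusted 0.000992; Spearman rho = 0.976, adjusted p = 0.00456; n = 8). The same held in Western-diet controls (r = 0.923, exact permutation p = 0.00149, adjusted 0.00794; rho = 0.952, adjusted p = 0.00456; n = 8). Leaving out the 2 mice farthest from the median of Slco1a1 gave r = 0.961 with E171 and r = 0.953 in controls. On the normal diet, where Slco1a1 varied little, the relation did not pass (r = 0.472 with E171 and 0.663 in controls, adjusted exact permutation p = 0.421 and 0.187). These are 16 relations in all, Slco1a1 with 4 genes in 4 groups, adjusted together by Benjamini-Hochberg in two-sided exact permutation tests.

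Abcc4 ran against Slco1a1 in Western-diet controls (r = -0.958, exact permutation p = 9.92e-05, adjusted 0.000992; rho = -0.952, adjusted p = 0.00456; n = 8), and r was -0.898 without the 2 farthest mice. On the Western diet with E171 the relation missed the threshold (r = -0.767, adjusted exact permutation p = 0.0676; rho = -0.762, adjusted p = 0.118) and rested on the 2 farthest mice, without which r was -0.364. On the normal diet with E171 it was positive (r = 0.843, adjusted exact permutation p = 0.035; rho = 0.952, adjusted p = 0.00456; r = 0.957 without the 2 farthest mice), over a span of Slco1a1 of only 3.76 to 4.48. Abcc4 spanned only -2.12 to -1.57 in normal-diet mice given E171, at intensities of only 40.1 to 88.8. Mouse 6 of that group was lowest in both genes and had the lowest 75th percentile of all arrays (175 intensity units). In normal-diet controls r was 0.29 (adjusted exact permutation p = 0.604). The differences between these correlations were not tested. None of the relations of Slco1a1 with Slco1a4 or Abcc3 passed (smallest adjusted exact permutation p = 0.194).

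These tests exchange all 8 mice of a group freely, although levels differed between slides, each of which held 2 mice of a group. In Western-diet controls the slide means of Slco1a1 were 2.4, -0.07, 0.23 and 2.15 on slides 1 to 4, and those of Abcc4 were -1.36, -0.53, -0.51 and -1.17, so this relation also ran along the slides. After slide means were subtracted, r of Slco1a1 with Abcc4 was -0.939 on the Western diet with E171, -0.873 in Western-diet controls, 0.918 on the normal diet with E171 and 0.379 in normal-diet controls. Within each of the 4 slides the mouse with more Slco1a1 had less Abcc4 in both Western-diet groups, and more Abcc4 on the normal diet with E171. With Hsd3b5 the slide-centred r was 0.932 on the Western diet with E171 and 0.714 in Western-diet controls, with the same direction on 4 of 4 slides in each. Exchanging mice within slides only gave an exact two-sided permutation p = 0.125 for these 5 relations, the smallest that the 16 arrangements allow, so that the design could not reach the threshold. The relation with Abcc3 on the normal diet with E171, which had not passed, reached the same p in this test. There Abcc3 ran against Slco1a1 on 4 of 4 slides (slide-centred r = -0.567).

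**Figure D3:**
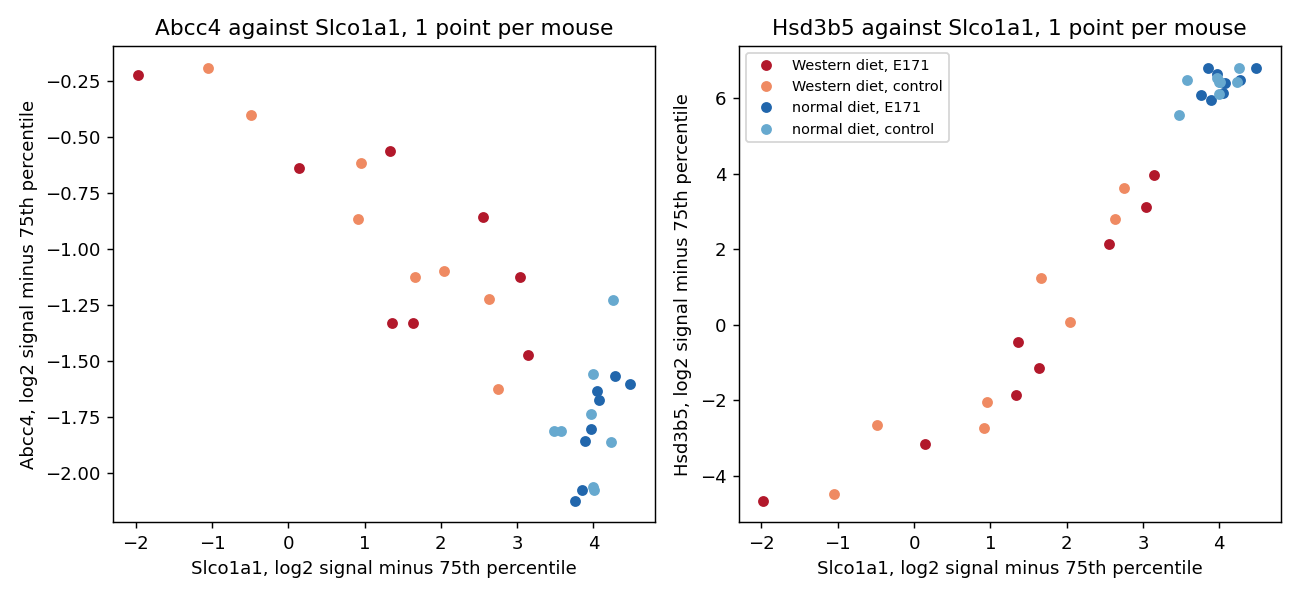
Normalized log2 signal of Abcc4 (left) and Hsd3b5 (right) against Slco1a1, 1 point per mouse and 8 mice per group. In Western-diet controls Abcc4 falls along Slco1a1 (r = -0.958) while Hsd3b5 climbs with it in both Western-diet groups (r = 0.934 with E171 and 0.923 in controls), and the normal-diet mice sit together at high Slco1a1.

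As a description over all 32 arrays after the mean of each group was subtracted, Slco1a1 went most closely with Slc22a7 among the 9 genes (r = 0.78) and against Abcc4 (r = -0.70). Slc22a7 also went against Abcc4 (r = -0.68). Slco1b2 went with Slco2b1 (r = 0.76), and Slco2b1 with Slc47a1 (r = 0.75), Slc22a7 (r = 0.74) and Slco1a1 (r = 0.66). Slco1b2 also went with Slco1a1, Slc22a7 and Slc47a1 (r = 0.65 each). Abcc2 went with Abcc3 (r = 0.74), and Abcc3 more weakly with Slco1b2 (r = 0.43) and Slco1a4 (r = 0.40). These values share arrays and scaling, and for Slco1a1 and Slc22a7 they come mostly from the Western-diet mice, which carry most of the spread.

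Among genes with a symbol outside the 9, the patterns most like that of Slco1a1 on the same measure were those of Hsd3b5 (r = 0.92), the sulfotransferase Sult2a8 (0.91) and the major urinary protein Mup3 (0.91). Slc22a7 was closest to Sult5a1 (0.88), Serpina3k (0.88) and Idnk (0.88). Slco1b2 was closest to Aqp9, a glycerol channel (0.88), the cytochrome P450 Cyp2e1 (0.88) and the paraoxonase Pon1 (0.87), and Slco2b1 to Ido2 (0.89), Aspa (0.89) and Pafah2 (0.88). For Slco1a4 they were Apbb1 (0.86), Ctf1 (0.84) and Pfkm (0.76), and for Slc47a1 Dlst (0.90), Prss36 (0.89) and Cfap36 (0.89). Abcc2 was closest to Gm10768 (0.80), Ctso (0.79) and Gclc (0.77), the last a subunit of the enzyme that limits glutathione synthesis. Abcc3 was closest to Iglon5 (0.80), the lipid droplet protein Cidea (0.78) and Abhd16a (0.77), and Abcc4 to Ska1 (0.77), Arhgap27 (0.77) and Dsn1 (0.74).

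Other transporters were called in both directions. Of 36 measured genes from a list of bile acid, organic ion and drug carriers, 15 were higher and 11 lower on the Western diet in E171 mice, and 15 higher and 12 lower in controls, with 15 higher and 9 lower in both. The shares of all genes were the 22.2% higher and 31.0% lower in E171 mice and 18.5% higher and 28.8% lower in controls given above, so the lower count lay near the background. Their median log2 difference was -0.02 in E171 mice and -0.03 in controls. The largest increases in controls were those of Slc22a27 (3.16) and Slc22a29 (2.48), of the mouse organic anion carrier family, Abcb1a, a P-glycoprotein (1.69), and Abcc12 (1.40, from a probe well above background on 4 of 8 normal-diet control arrays, with 2.55 for its other probe). The largest decreases were those of Slco2a1, a prostaglandin carrier (-1.69, with -0.29 for the probe that moved least), Slc22a30 (-1.16), Slc29a1, a nucleoside carrier (-1.0), and Slc22a28 (-0.87). For E171 against control, 0 of the 36 passed on either diet.

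**Figure D4:**
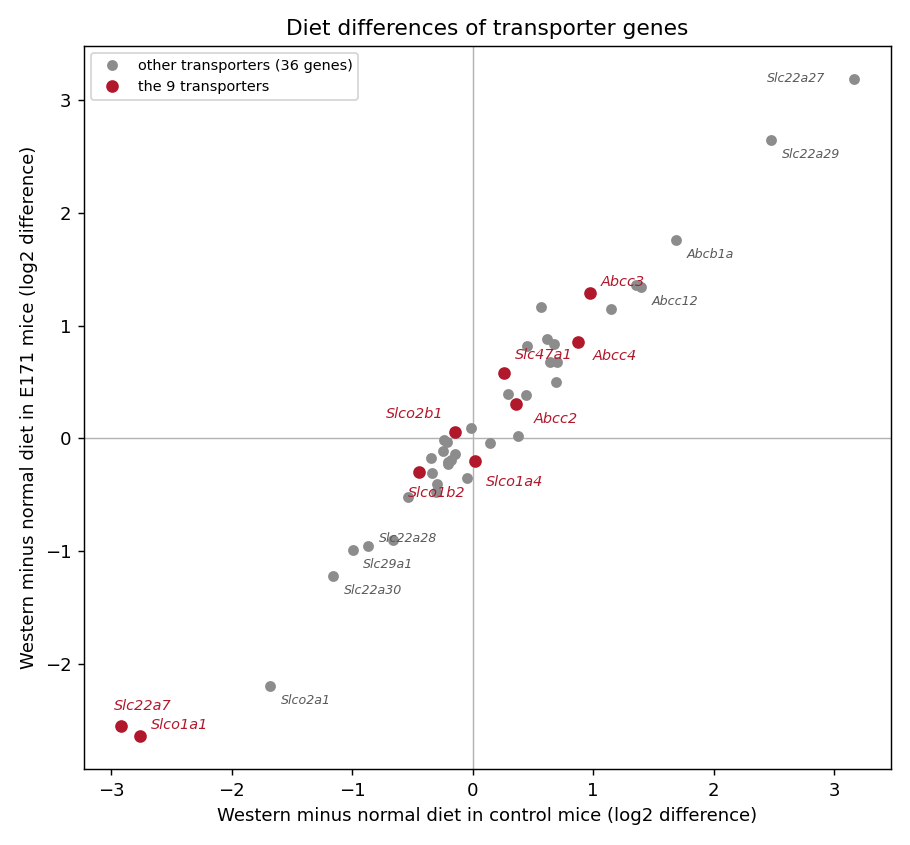
Log2 difference between Western and normal diet in control mice (horizontal) and in E171 mice (vertical) for the 9 transporters (red) and 36 other transporters (grey). Slco1a1 and Slc22a7 stand at the lower left, below -2.5 in both, and Abcc3 and Abcc4 lie in the upper right quadrant.

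Genes of the sensors and hormone axes that are known to act on these transporters also moved with diet. Their part in the diet differences of the transporters was not tested. Of 21 regulators, 1 was higher and 12 were lower in Western-diet controls. Nfe2l2, which encodes the transcription factor NRF2, rose by 0.76. Foxa2 (-0.73), Nr0b2 (-0.64), the growth hormone receptor gene Ghr (-0.51) and Foxa1 (-0.49) fell most. For these lists in controls, the shares of all genes were 18.5% higher and 28.8% lower. Among NRF2 targets 9 of 13 rose and 2 fell, with Gsta2 (2.60), Cbr3 (2.58), Nqo1 (1.81) and Srxn1 (1.48) ahead, and G6pdx (-0.94) and Osgin1 (-0.73) lower. Targets of the receptors CAR and PXR were divided, 5 of 9 higher, led by Cyp2b10 (3.31), Akr1b7 (1.63, well above background on 5 of 8 normal-diet control arrays), Cyp3a11 (0.98) and Cyp2c55 (0.83), and 3 lower, Cyp2c37 (-1.43), Ces2a (-1.02) and Cyp2c29 (-0.95). Of PPARα targets 8 of 11 rose and 0 fell, Acot2 (2.27), Vnn1 (1.60), Pdk4 (1.08) and Ehhadh (1.07) most. Of aryl hydrocarbon receptor targets 2 of 5 rose, Cyp1b1 (2.10) and Nqo1, which is on both lists, and Cyp1a2 fell (-1.42).

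Of 12 genes typical of male liver 9 fell and 0 rose, with Hsd3b5 (-6.86), Moxd1 (-3.77), Susd4 (-3.25) and Cyp7b1 (-2.29) ahead. Moxd1 exceeded the background clearly in 2 of 8 Western-diet controls and 6 of 8 normal-diet controls. Genes typical of female liver rose in 5 of 7 cases, led by Cyp2b13 (3.14, clearly above the background in 8 of 8 Western-diet and 3 of 8 normal-diet controls), Cyp2b9 (2.84), Cyp3a16 (0.99) and Cyp3a41a (0.86), and 1, the prolactin receptor gene Prlr (-1.0), fell. In E171 mice the counts were 2 higher and 10 lower of 21 regulators, 9 and 2 of 13 NRF2 targets, 4 and 2 of 9 CAR and PXR targets, and 7 and 0 of 11 PPARα targets. They were 2 and 1 of 5 aryl hydrocarbon receptor targets, 0 and 8 of 12 male genes and 4 and 1 of 7 female genes. Of all genes, 22.2% were higher and 31.0% lower in E171 mice, and 18.5% and 28.8% in controls. The lower counts of CAR and PXR targets and of aryl hydrocarbon receptor targets lay near these shares. The median log2 differences in controls were -0.31 for regulators, 0.89 for NRF2 targets, 0.64 for CAR and PXR targets, 0.92 for PPARα targets, 0.02 for aryl hydrocarbon receptor targets, -1.19 for male genes and 0.86 for female genes, against -0.10 for all genes.

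Markers of the cell types in liver moved with diet beside the transporters, and in bulk RNA fewer cells of a type and less RNA per cell cannot be told apart. In controls 18.5% of all genes were higher and 28.8% lower. Of 10 hepatocyte markers 8 fell and 0 rose in controls, Cps1 (-1.12), Fgb (-0.77), Apoa1 (-0.45) and Ahsg (-0.37) most. Their summed signal, in units of the 75th percentile of an array, ran from 6295 to 8416 on the Western diet with E171 and from 6051 to 8777 in Western-diet controls, against 8298 to 11008 with E171 and 8087 to 10562 in controls on the normal diet. Of 10 Kupffer cell markers 7 rose, Lyz2 (1.51), Cd68 (1.44), Cybb (1.18) and Cd5l (1.11) most (summed signal 150 to 340 with E171 and 109 to 289 in controls on the Western diet, against 77.4 to 150 with E171 and 55.6 to 196 in controls on the normal diet). The other 3 Kupffer cell markers, Clec4f (0.10), Marco (-0.09) and Timd4 (-0.50), did not pass in controls. Of 8 stellate cell markers 6 rose, Col1a1 (3.02), Col3a1 (2.23), Pdgfrb (1.07) and Lrat (0.76) most (128 to 200 with E171 and 103 to 224 in controls on the Western diet, against 86.0 to 115 with E171 and 78.6 to 115 in controls on the normal diet).

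Of 6 cholangiocyte markers 4 rose, Spp1 (1.43), Epcam (1.09), Krt7 (1.04) and Cftr (0.92) (15.2 to 76.2 with E171 and 12 to 64.3 in controls on the Western diet, against 6.80 to 14.2 with E171 and 6.66 to 15.3 in controls on the normal diet). Of 7 endothelial markers 3 rose, Lyve1 (1.07), Vwf (0.57) and Cdh5 (0.31), and 2 fell, Clec4g (-0.42, with -0.02 for its other probe) and Kdr (-0.35) (46.7 to 62.1 with E171 and 43.6 to 63.9 in controls on the Western diet, against 59.9 to 67.5 with E171 and 54.0 to 65.8 in controls on the normal diet). With 28.8% of all genes lower in controls and 18.5% higher, the 2 lower endothelial markers lay near the background. Of 7 markers of lipid-associated macrophages 5 rose, among them Gpnmb, Mmp12 (5.62), Trem2 (3.98) and Itgax (2.80, with 0.02 for its other probe), and 1, Fabp5 (-2.49), fell. The summed signal was 46.0 to 127 with E171 and 31.1 to 116 in controls on the Western diet, against 107 to 146 with E171 and 54.4 to 292 in controls on the normal diet. Its medians were lower on the Western diet (70.5 with E171 and 71.8 in controls) than on the normal diet (120 and 139), although 5 of 7 markers rose. The sum adds linear signals, so bright genes weigh most in it. Of this last list Gpnmb was well above background on 0 normal-diet arrays, and Mmp12 was so on 0 of 8 arrays of normal-diet E171 mice and 2 of 8 of normal-diet controls. Every other measured marker of the 6 lists was well above background on 8 of 8 arrays of each group. Spp1 is on both the cholangiocyte and the lipid-associated macrophage list. The part of these cell types in the diet differences of the transporters was not tested.

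The 300 bases around the transcription start (250 before and 50 after) were on hand from RefSeq for 6 of the 9 genes, as 9 windows of the GRCm38.p6 build; Slc22a7, Slc47a1 and Abcc3 were not matched. They were searched on both strands for the core of the antioxidant response element bound by NRF2 (TGACNNNGC) and for the element bound by STAT5 (TTCNNNGAA), since targets of NRF2 and sex-biased genes moved with diet. The first was found in the window of Abcc2 and in both windows of Abcc4, and in 12.4% of 32851 windows of all genes. The second was found in Slco1b2, in 2 windows of Slco2b1 and in 1 window of Abcc4, and in 8.3% of all windows. The windows of Slco1a1 and Abcc2 and 1 window of Abcc4 are shown as examples of a gene that fell and of exporters that rose. Capitals mark matches, which are descriptions of letters and not sites of binding. Any part of these matches in the diet differences was not tested.
Slco1a1 start (GRCm38.p6 chr6:141946913-141947212, minus strand): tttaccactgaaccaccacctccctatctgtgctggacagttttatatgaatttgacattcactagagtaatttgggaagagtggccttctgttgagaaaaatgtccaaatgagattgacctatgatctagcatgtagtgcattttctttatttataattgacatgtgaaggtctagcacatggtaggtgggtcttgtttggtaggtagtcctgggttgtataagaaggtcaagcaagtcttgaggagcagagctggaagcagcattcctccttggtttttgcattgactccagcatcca
Abcc2 start (GRCm38.p6 chr19:43782058-43782357, plus strand): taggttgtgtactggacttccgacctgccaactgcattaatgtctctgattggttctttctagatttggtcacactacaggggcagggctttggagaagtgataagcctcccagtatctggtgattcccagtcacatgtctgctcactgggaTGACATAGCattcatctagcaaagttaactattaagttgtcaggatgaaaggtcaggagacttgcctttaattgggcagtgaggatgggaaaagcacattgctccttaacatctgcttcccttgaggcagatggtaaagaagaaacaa
Abcc4 start (GRCm38.p6 chr14:118706170-118706469, minus strand): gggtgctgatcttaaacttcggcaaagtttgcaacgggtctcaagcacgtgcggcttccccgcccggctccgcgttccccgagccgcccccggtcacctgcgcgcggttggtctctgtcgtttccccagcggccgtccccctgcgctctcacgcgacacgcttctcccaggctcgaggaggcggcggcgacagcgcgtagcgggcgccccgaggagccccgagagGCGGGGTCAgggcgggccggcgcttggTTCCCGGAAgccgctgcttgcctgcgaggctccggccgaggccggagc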

How the data were processed

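Liver RNA of 32 mice was measured on one-colour arrays, 1 array per mouse, 8 mice in each of 4 groups named by the sample titles. The deposited raw files hold background-corrected processed Cy3 intensity values on a linear scale, 62976 spots per array, per the file headers. Agilent Feature Extraction 10.10.1.1 produced them and limma was named for later steps, per the submitters' processing notes. A deposited table of log2 values covers 36695 probes; its normalization is not given in the sources used here, and the table served as an alternative.

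Spots marked as outliers (42 to 91 per array) were dropped, processed signals were put on the log2 scale and averaged over the spots of a probe, and every array was set relative to its 75th percentile. Probes called well above background on at least 6 of 8 arrays of 1 group were kept (35777). The brightest probe stood for each of 23646 genes. All arrays were fitted together with limma 3.58.1 in R 4.3.3 (lmFit, contrasts.fit, eBayes; two-sided), with 1 mean per group, 6 contrasts and Benjamini-Hochberg adjustment over all genes at 0.05. Version 1.17.8 of data.table read the files. The fit was tested on simulated data. Correlations used scipy 1.17.1 and numpy 2.4.6 in Python 3.11.15, and figures matplotlib 3.10.9.

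The 75th percentile of an array was 175 to 342 intensity units, and 32164 to 37261 probes were well above background. With 8 arrays a group, the number of arrays limits the precision. Levels of different probes are not compared.

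The 9 genes and the 14 lists were chosen with earlier results of these data known. Named beside the 9 genes are, of each list, up to 4 genes higher and 4 lower by size among those past the threshold in controls. The Kupffer cell markers that did not pass in controls are named as well. For each of the 9 genes, the 3 genes with the highest correlation after group means were subtracted are named. These were taken from genes with a symbol outside the 9. Gene names of probes were matched to a RefSeq gene list by accession (32994 probes), symbol (10224) or synonym (520), or taken from the file (2431). Probe positions are in mm9, and promoter windows, from RefSeq, in GRCm38.p6. Alternatives were quantile normalization, scaling to the median, normexp correction (offset 50) with quantile normalization, the deposited table, no filter, a filter of 8 arrays, the mean of all probes of a gene, the slide as a block, the replicate number as a block, and leaving out each mouse. Use of the dimmer probe and the slide-centred correlations were added after the data were seen.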

Additional observations from a re-analysis of the deposited data

Results flagged for a closer look

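In the Western-diet group with E171, mouse 3 had the lowest Abcc3 signal (5.74) and stood apart from the others: the gap to the next mouse (6.04) made up 0.553 of the range of the group, above Dixon's 95% limit for 8 values. Of 36 groups of values tested this way (9 genes in 4 groups), this was the only one past the limit, while chance alone marks about 1 in 20. The same mouse had the lowest Slco1a1 signal and the highest Abcc4 signal of its group.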

How the results depend on the processing

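The 10 other settings and the omission of single mice changed none of the calls of Slco1a1, Slc22a7, Abcc2, Abcc3 and Abcc4 in the diet comparisons of limma, and none of the E171 comparisons or the interaction gained a call. With the dimmer probe standing for the 4 genes with 2 probes, 4 of all 9 genes were called lower in E171 mice, against 2 with the brighter probe. Among these 4 were Slc22a7, which has only 1 probe, and the opposite-strand probe named for Slco2b1, which may not measure that gene. Slco1b2 in controls lost its call with the deposited table (-0.22, adjusted p = 0.0991 in limma), normexp (-0.17) and quantile normalization (-0.23), and in E171 mice it gained one with median scaling (-0.35), the mean of probes (-0.38), the dimmer probe (-0.47), the slide block (-0.30, adjusted p = 0.0246 in limma) and without Western-diet E171 mouse 6 or 8 (-0.35 to -0.34). Slc47a1 in controls lost its call with median scaling (0.23, adjusted p = 0.0542 in limma), without a filter (adjusted p = 0.0553 in limma, with more genes tested) and without single mice (0.20 at lowest). Slco2b1 gained a call in E171 mice with quantile normalization (0.18) and normexp (0.24), and in controls without Western-diet control 6 (-0.21, adjusted p = 0.0399 in limma). The cause was not tested.

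Directions that turned round were those of small differences, except one. Slco2b1 turned in E171 mice with the dimmer probe, the one on the opposite strand, which passed (-0.354, adjusted p = 0.0215 in limma), with the mean of probes, which includes it (-0.15), and with median scaling (-5.86e-05), and in controls with normexp (0.0303). For E171 on the normal diet it turned with the dimmer probe (0.149) and the mean of probes (0.0314), averaged over diets with median scaling (-0.027), and in the interaction with the dimmer probe (-0.145). Median scaling also turned Slco1a4 in the diet comparison of controls (-0.00381), Abcc2 for E171 on the Western diet (-0.0241) and Slc47a1 for E171 averaged over diets (-0.037). Leaving out 1 mouse at a time gave both signs for Slco1a4 in the diet comparison of controls (-0.189 to 0.126) and for E171 on the Western diet (-0.0219 to 0.194), and for Slco1a1 for E171 on the Western diet (-0.092 to 0.709) and in the interaction (-0.194 to 0.606). It did so for Abcc4 with E171 on the Western diet (-0.154 to 0.0513), on the normal diet (-0.0673 to 0.0535), averaged over both (-0.0886 to 0.0139) and in the interaction (-0.13 to 0.0749), and for Abcc3 with E171 on the normal diet (-0.127 to 0.0354). Averaged over diets it did so for Slc22a7 (-0.0267 to 0.226), Slc47a1 (-0.0201 to 0.0311) and Slco2b1 (-0.0070 to 0.0442). None of these passed, apart from the dimmer probe of Slco2b1.

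The relations of Slco1a1 were recomputed, as a choice made after the data were seen, with slide means subtracted and mice exchanged within slides. The 4 that had passed, with Hsd3b5 on the Western diet with E171 (0.932) and without (0.714) and with Abcc4 in Western-diet controls (-0.873) and on the normal diet with E171 (0.918), no longer could, since an exact permutation p of 0.125 is the smallest possible. In Western-diet controls r turned for Slco1a4 (0.236) and Abcc3 (0.572), neither of which had passed.

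Groups share replicate numbers 1 to 8, but no label says that a number marks a shared litter or day, and the correlation of equally numbered mice (-0.298 to 0.571) did not exceed 0.1 for every pair in any comparison, so the numbers were not taken as pairs. In the diet comparison of controls 6 of 8 pairs exceeded it, and 6 of 8 pairs shared a slide. Closest to their own number were 6 of 16 mice in that comparison and for E171 on the Western diet, 3 for diet in E171 mice and 1 for E171 on the normal diet, where chance gives about 2. With the replicate number as a block, Slco1b2 passed in E171 mice (-0.30, adjusted p = 0.0118 in limma), and the calls of the other 8 genes did not change.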

Other observations

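Some mice stood at the end of their group for many of the 9 genes at once. Western-diet control 6 had the highest signal of its group for 5 of 9 genes (Slco1a1, Slco1b2, Slco2b1, Slc22a7 and Slc47a1) and the lowest for 2 (Slco1a4 and Abcc4). Western-diet E171 mouse 3 had the lowest signal for 5 of 9 (Slco1a1, Slco1b2, Slco2b1, Abcc2 and Abcc3) and the highest for Abcc4. Western-diet control 3 was lowest for 4 of 9 (Slco1b2, Slco2b1, Slc22a7 and Abcc2). On the normal diet no mouse was highest or lowest for more than 3 of the 9 genes.

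The second probe of Slco1b2 differed by 0.44 between E171 mice and controls on the Western diet, with an unadjusted p = 0.0115 and an adjusted p = 0.243 in limma over all kept probes, while the brighter probe of the gene differed by 0.20.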
